A study of Homo sapiens with 6 samples.

Results

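The insulin and insulin-like growth factor (IGF) signalling genes described here were 10 genes whose symbols were chosen by name and matched to the rows of the deposited table, out of 28395 genes in all. They were the receptors INSR, IGF1R and IGF2R, the docking proteins IRS1 and IRS2, the adaptor GRB10, and the binding proteins IGFBP2, IGFBP3, IGFBP4 and IGFBP6. Each symbol matched 1 row. RNA-seq was performed on HCC827, an established human lung adenocarcinoma cell line whose EGFR carries an activating deletion and which was grown in medium with fetal bovine serum. 3 libraries came from cells given the vehicle DMSO and 3 from cells given 1 μM erlotinib, an inhibitor of the EGFR kinase, in both cases for 24 h. All libraries thus carry the same EGFR mutation and come from 1 cell line. The study's statistics section says in general that its experiments other than those in animals were repeated independently, but neither it nor the labels say for this RNA-seq whether the libraries of a group came from separate cultures. The p-values set the group difference against the spread between these libraries, which may be technical.

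Insulin and the IGFs bind the tyrosine kinase receptors INSR and IGF1R, which phosphorylate the docking proteins IRS1 and IRS2. These recruit PI3K, and the lipid it makes brings AKT to the membrane. Active AKT turns on the kinase complex mTORC1 and keeps the FOXO transcription factors out of the nucleus. IGF2R has no kinase and carries IGF2 to the lysosome, GRB10 binds the active receptors and dampens their output, and the secreted IGFBPs hold IGFs in the medium and limit or prolong their access to the receptors. In lung cancer cells, IGF1R signalling is known as a route that can keep PI3K and AKT active while EGFR is inhibited.

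The libraries held between 20760204 and 24641819 reads on genes. Values are given as signal, the reads of a gene divided by 1 size factor per library, and were compared with limma on log2(signal + 1), with adjustment over all 14215 genes of mean signal 10 or more. All 10 genes passed this limit, and the lowest had 211 reads in its poorest library. The epithelial markers EPCAM, CDH1, KRT7, KRT8, KRT18 and KRT19 were all present. Their summed signal was 254717 to 286814 with DMSO and 185948 to 191721 with erlotinib, the largest share of it from KRT7. The keratins fell (log2 fold changes of -1.25 for KRT18 to -0.39 for KRT19), while EPCAM (-0.05, adjusted p = 0.429) and CDH1 (0.14, adjusted p = 0.0531) did not pass the test in limma. Of 8 fibroblast markers, 7 had at most 20 reads in every library, among them COL1A2, DCN and PDGFRB, and the most abundant, COL1A1, had a signal of 68.1 to 95.3 with DMSO and 190.0 to 245 with erlotinib. Of 4 endothelial markers, 3 had at most 20 reads in every library and VWF reached 35.1 with erlotinib. Of 6 leukocyte markers, 4 had at most 20 reads in every library, PTPRC and CD3E included, and nearly all of the summed signal of 2787 to 3538 was CD68, a lysosomal gene also known outside leukocytes. COL1A1, VWF and CD68 were higher with erlotinib (CD68 by 0.23 on the log2 scale, adjusted p = 0.0076, limma), and their part in the values below was not tested. In bulk RNA, fewer cells that express a gene and less of its RNA per cell cannot be told apart.

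Across the pathway's own genes the response was mixed. INSR, IGF1R, IGFBP3 and IGF2R rose with erlotinib, IGFBP4, IRS1, IGFBP6, IGFBP2 and GRB10 fell, and IRS2 did not pass the test. Of all 14215 genes tested, 35.3% were higher and 35.4% were lower at an adjusted p under 0.05 in limma, so that change in either direction was common and the counts of 4 and 5 among 10 genes are read only against that. With each library scaled to its total, 43.3% of all genes were higher and 27.8% lower, and 2 of the 10 genes were lower in place of 5. It was also 2 without erlotinib 4, and 3 without DMSO 3. The values of the 2 groups did not overlap for 4 genes that were higher and 4 that were lower, beside 73.6% of all genes tested (36.7% higher and 36.9% lower). INSR and IGFBP4 passed the test with a log2 fold change of at least 1 in size, as did 17% of all genes tested upwards and 10.8% downwards. The median log2 fold change of the 10 genes was -0.16, beside 0.02 over all genes tested. INSR gained 2.06 and IGFBP4 lost 1.65 on the log2 scale, and 5.49% of all genes rose at least as far as INSR while 4.19% fell at least as far as IGFBP4.

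**Figure D1:**
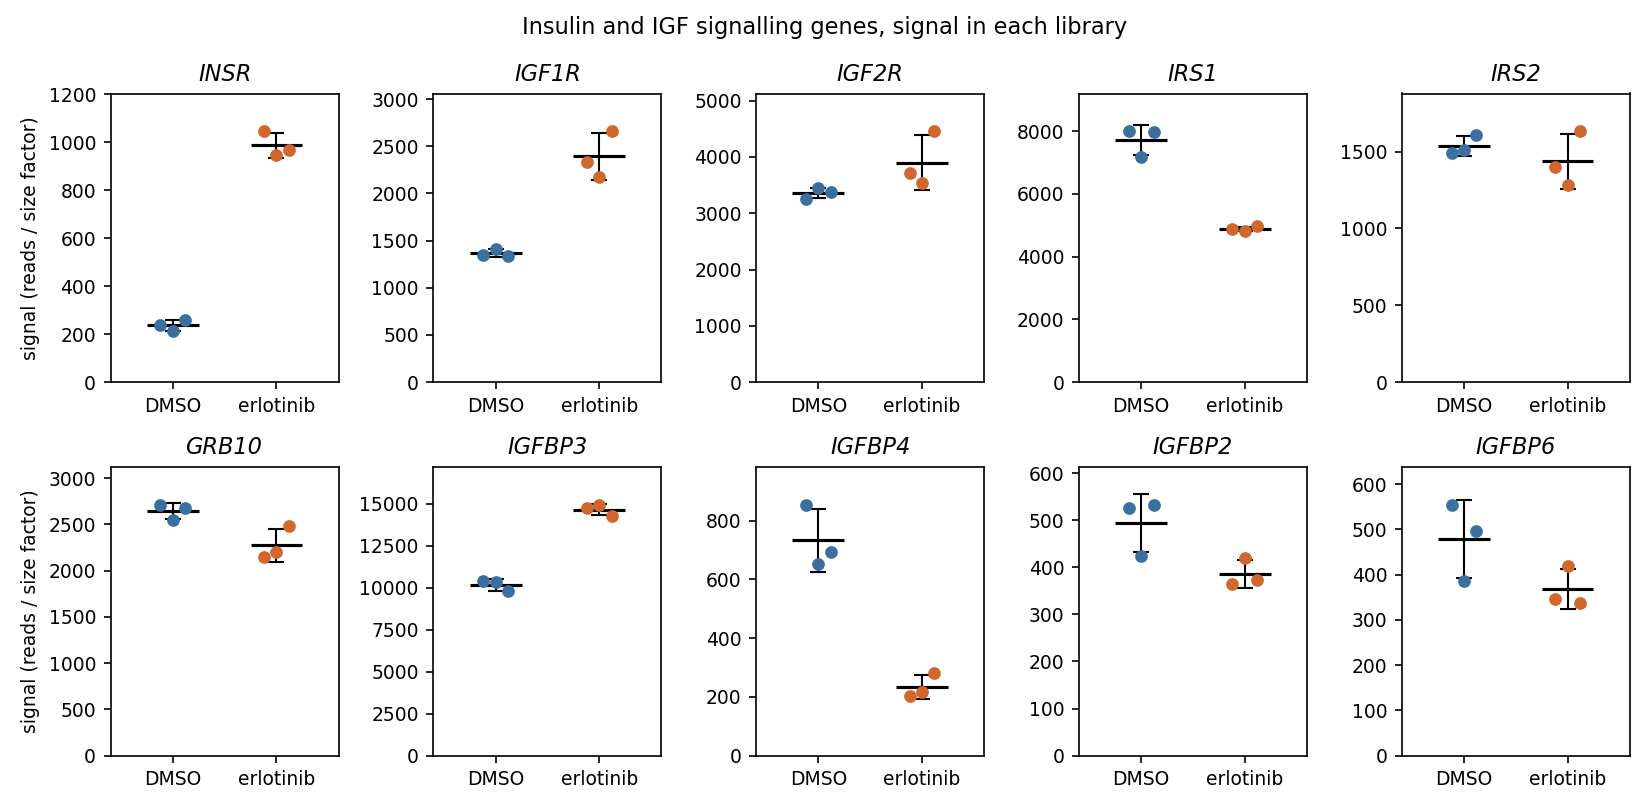
Signal (reads divided by the library's size factor, linear axes from 0, a scale of its own for each gene) of the 10 genes in the DMSO and the erlotinib group. Points are libraries, wide lines the group means and error bars the SD (n = 3). The INSR values with erlotinib, 947 to 1046, lie far above those with DMSO, 214 to 257, while the groups overlap for IRS2 and IGFBP6.

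The sequences before the start sites are shown for INSR and IGFBP4, which moved farthest up and down, and for the pair of genes that held a forkhead motif, IRS2 and IGFBP6. Each is the stretch of 250 bases before the RefSeq start site in GRCh38.p14, read 5′ to 3′ along the gene. They lie at chr19:7294415-7294664 (minus strand, INSR), chr17:40443200-40443449 (plus strand, IGFBP4), chr13:109786584-109786833 (minus strand, IRS2) and chr12:53097417-53097666 (plus strand, IGFBP6). Capitals mark the forkhead letters.
INSR: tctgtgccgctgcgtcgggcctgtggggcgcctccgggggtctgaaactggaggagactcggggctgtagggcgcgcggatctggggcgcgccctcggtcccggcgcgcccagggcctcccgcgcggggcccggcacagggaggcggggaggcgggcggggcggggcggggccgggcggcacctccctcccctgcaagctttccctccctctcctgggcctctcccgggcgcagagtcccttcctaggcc
IGFBP4: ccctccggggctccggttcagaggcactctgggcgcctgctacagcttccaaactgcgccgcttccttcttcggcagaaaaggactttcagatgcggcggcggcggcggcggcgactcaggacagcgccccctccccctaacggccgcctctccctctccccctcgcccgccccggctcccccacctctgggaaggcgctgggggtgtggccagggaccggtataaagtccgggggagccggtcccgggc
IRS2: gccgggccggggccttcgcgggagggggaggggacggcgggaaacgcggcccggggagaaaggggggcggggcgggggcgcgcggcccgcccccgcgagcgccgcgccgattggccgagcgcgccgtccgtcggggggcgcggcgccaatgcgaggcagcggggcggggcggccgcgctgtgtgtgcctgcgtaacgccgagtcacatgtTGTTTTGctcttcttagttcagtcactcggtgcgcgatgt
IGFBP6: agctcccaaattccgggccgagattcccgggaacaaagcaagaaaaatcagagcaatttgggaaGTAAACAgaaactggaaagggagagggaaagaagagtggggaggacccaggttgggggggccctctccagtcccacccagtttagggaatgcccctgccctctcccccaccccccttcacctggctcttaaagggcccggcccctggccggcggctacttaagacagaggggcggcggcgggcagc

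Forkhead factors such as the FOXO proteins are known to bind GTAAACA and CAAAACA, and AP-1 is known to bind TGANTCA, where N is any base. These letters were searched on both strands of the RefSeq windows that run from 250 bases before to 50 after a start site. The 10 genes had 16 windows. CAAAACA was in the IRS2 window on the opposite strand, so that it is printed as TGTTTTG, with its first printed base 40 bases before the start. GTAAACA was in the IGFBP6 window, 186 bases before the start. TGANTCA was in 0 of the 16 windows. Of all 35116 windows, 3.42% held GTAAACA, 4.92% held CAAAACA and 7.71% held TGANTCA. The windows of INSR, IRS2 and IGFBP4 were rich in G and C, at 78.3%, 75.7% and 74.0%, and that of IGFBP6 was at 61.7%, where the median of all windows was 58.7%. The match is of letters only, and RNA-seq gives no measure of binding there.

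INSR, the insulin receptor, lies on the minus strand at chr19:7112265-7294414 in GRCh38. Its signal was 239, 214 and 257 in the 3 DMSO libraries and 1046, 947 and 967 in the 3 erlotinib libraries. The lowest erlotinib value was far above the highest DMSO value. The log2 fold change was 2.06 (SE 0.11, 95% confidence interval 1.83 to 2.28), a 4.17-fold rise with an adjusted p of 6.8e-13 in limma. Its nearest tested neighbours on the chromosome did not move as far. The zinc finger gene ZNF557, 24.3 kb away, had a log2 fold change of 0.07 (adjusted p = 0.568, limma), and ARHGEF18, 54.5 kb away, had 0.51. The tested genes most like INSR over the 6 libraries, by the Euclidean distance between log2 values taken relative to their DMSO mean, were AZIN1-AS1 at 0.093, P2RX4 at 0.109 and CLSTN3 at 0.141, out of 11068 genes whose mean signal was 100 or more. P2RX4 encodes an ATP-gated ion channel and CLSTN3 a membrane protein of the calsyntenin family.

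IGF1R, the receptor of IGF1 and a close relative of INSR, lies on the plus strand at chr15:98648539-98964530. Its signal was 1349, 1413 and 1338 with DMSO and 2338, 2177 and 2660.3 with erlotinib. The groups did not overlap, and the rise was 1.75-fold (log2 fold change 0.80, SE 0.08, adjusted p = 1.8e-08, limma). The long noncoding RNA IRAIN, whose annotation overlaps that of IGF1R, had a mean signal of 19.7, against 1879 for IGF1R itself. Whether the counting used the strand is not stated, and the part of reads shared with overlapping genes was not tested.

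IGF2R, the kinase-less receptor that clears IGF2, lies on the plus strand at chr6:159969082-160111504. Its signal was 3259, 3440 and 3375 with DMSO and 3708, 3536 and 4458 with erlotinib. All erlotinib libraries were above all DMSO libraries, but the erlotinib 6 library stood well above the others of its group. The pseudogene LOC729603, whose annotation overlaps that of IGF2R, had a mean signal of 46.4, against 3629 for IGF2R. The log2 fold change was 0.21 (SE 0.08, adjusted p = 0.0226, limma). Without erlotinib 6 it was 0.11 with an adjusted p of 0.237, and without DMSO 1 or DMSO 3 the adjusted p was 0.0611 or 0.0522, so the call rests on single libraries. With each library scaled to its total it was 0.39 (adjusted p = 0.000311, limma).

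The receptors thus rose by unequal amounts. To compare levels between genes, signal was divided by the length of the merged exons in kb. That length joins the exons of all annotated transcripts, whether or not expressed here, so levels and ranks between genes depend on it. The loss of reads that span introns, which the mapping did not split, was not tested. INSR had the lowest level per kb of the 10 genes with DMSO, 21.8 ± 2.01 (SD, n = 3), and 91.1 ± 4.80 with erlotinib. IGF1R had 98.0 ± 2.93 and 172 ± 17.7. The ratio of INSR to IGF1R per kb was 0.223 ± 0.027 with DMSO and 0.535 ± 0.058 with erlotinib, and it was higher in each erlotinib library than in any DMSO library. The log2 ratio of INSR to IGF1R rose by 1.26, and the exact two-sided permutation test gave p = 0.1, the smallest that 3 against 3 libraries allow. IGF1R remained the more abundant of the receptor kinases per kb in all 6 libraries.

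**Figure D2:**
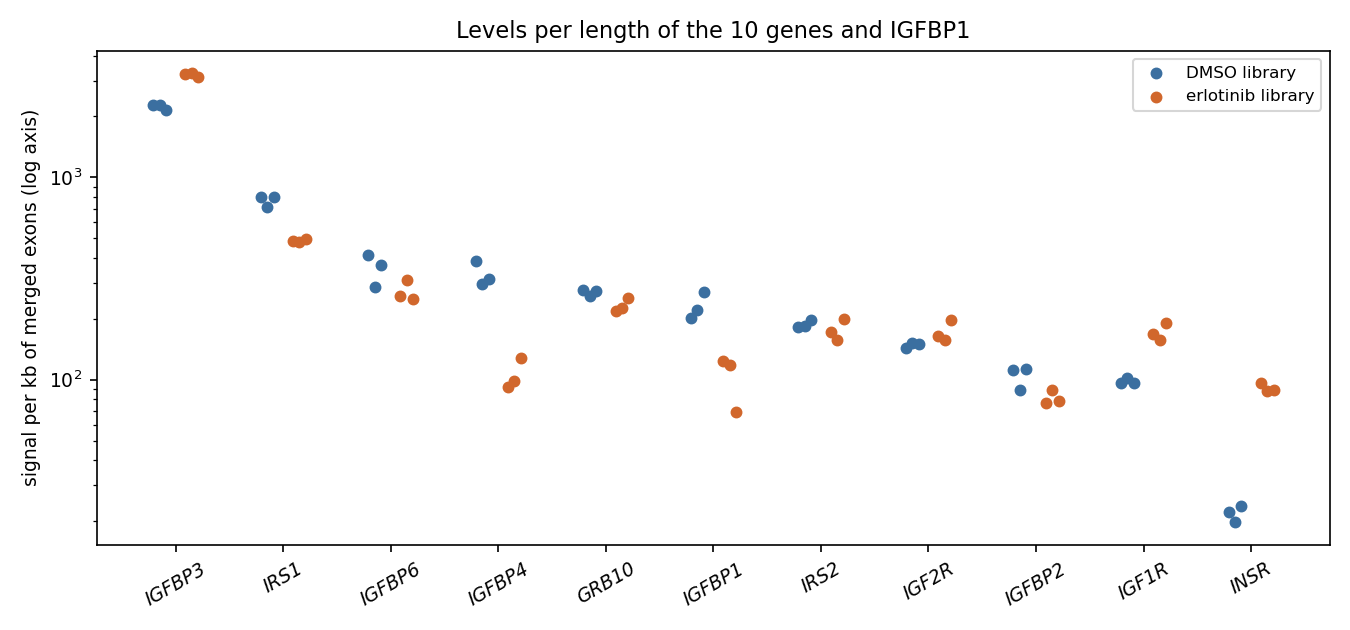
Level per length (signal per kb of merged exons, logarithmic axis) of the 10 genes and of IGFBP1, ordered by their mean with DMSO. Each point is a library, blue for DMSO and orange for erlotinib. IGFBP3 and IRS1 have the highest levels in both groups, and INSR rises from the lowest level, 21.8, to 91.1.

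IRS1, the docking protein that links the receptors to PI3K, lies on the minus strand at chr2:226731312-226799820. Its signal was 7996, 7174 and 7981 with DMSO and 4870, 4804 and 4960 with erlotinib. The groups were well apart, and the erlotinib level was 63.2% of that with DMSO (log2 fold change -0.66, SE 0.06, adjusted p = 1.3e-08, limma). RHBDD1, a rhomboid protease gene whose annotation lies 339 bases from that of IRS1, moved the other way, with a log2 fold change of 0.35.

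IRS2, the related docking protein, lies on the minus strand at chr13:109752695-109786583. Its signal was 1492, 1509 and 1609 with DMSO and 1398, 1282 and 1633 with erlotinib. The erlotinib 6 library had the highest value of all 6 and the other erlotinib libraries the lowest, so the groups overlapped. The log2 fold change was -0.10 (SE 0.09, adjusted p = 0.304, limma), and its 95% confidence interval ran from -0.29 to 0.08. The direction turned with each library scaled to its total (0.077, adjusted p = 0.459, limma). Per kb, IRS1 stood at 4.09 ± 0.25 times the level of IRS2 with DMSO and at 2.79 ± 0.29 times with erlotinib. The log2 ratio of IRS2 to IRS1 rose by 0.56, again with p = 0.1 in the exact two-sided permutation test, the smallest possible, and with no overlap between the groups.

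GRB10, the inhibitory adaptor of both receptor kinases, lies on the minus strand at chr7:50590068-50793453. Its signal was 2715, 2548 and 2677 with DMSO and 2148, 2203 and 2481 with erlotinib. The groups did not overlap, but the gap between the highest erlotinib and the lowest DMSO value was small. The log2 fold change was -0.22 (SE 0.07, adjusted p = 0.0119, limma). With each library scaled to its total it was -0.040 and did not pass the test (adjusted p = 0.64, limma). Nor did it pass without erlotinib 4 (-0.18, adjusted p = 0.0848, limma) or without erlotinib 5 (-0.20, adjusted p = 0.0618, limma).

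**Figure D3:**
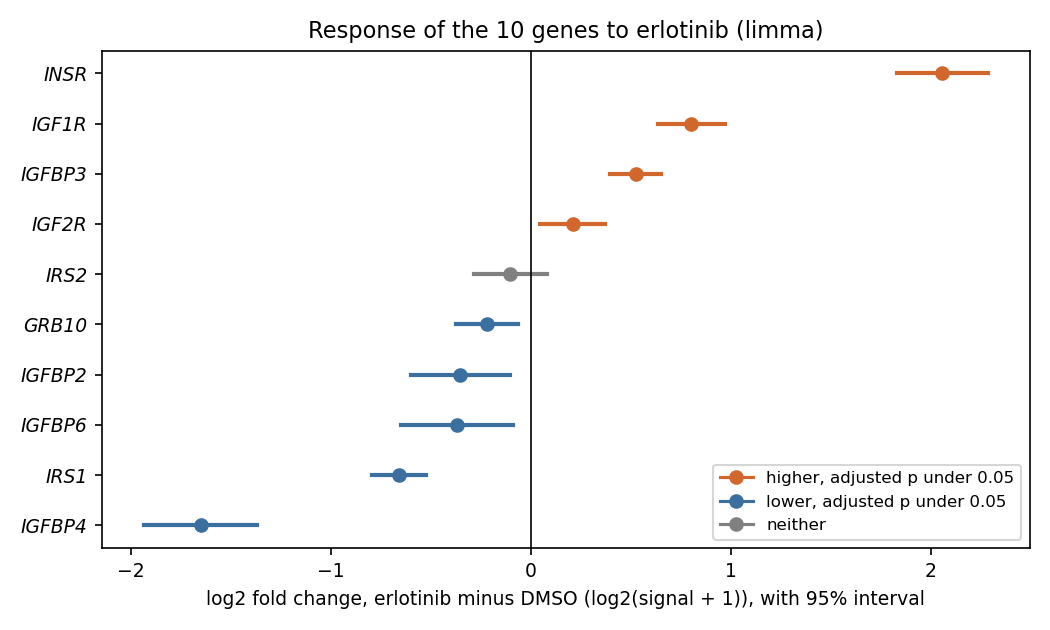
Log2 fold change of the 10 genes, erlotinib against DMSO, on the log2(signal + 1) scale; points are limma estimates and bars their 95% confidence intervals, orange where higher, blue where lower and grey where the test was not passed. INSR at 2.06 and IGFBP4 at -1.65 lie farthest from 0, and the interval of IRS2 spans 0.

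Of the binding proteins, IGFBP3 rose and IGFBP4, IGFBP2 and IGFBP6 fell. IGFBP3, the main carrier of IGFs in blood, lies on the minus strand at chr7:45912245-45921272. Its signal was 10416, 10359 and 9781 with DMSO and 14732, 14947 and 14278 with erlotinib. The 3 erlotinib libraries lay close together and above all DMSO libraries, and the rise was 1.44-fold (log2 fold change 0.52, SE 0.06, adjusted p = 1.5e-07, limma). Its neighbour IGFBP1, 18.6 kb away on the same chromosome and not among the 10 genes, fell, with a log2 fold change of -1.19 (adjusted p = 8.2e-06, limma).

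IGFBP4, a binding protein that is known to hold IGFs back from their receptor, lies on the plus strand at chr17:40443450-40457725. Its signal was 854, 654 and 691 with DMSO and 202, 217 and 282 with erlotinib. The highest erlotinib value was under the lowest DMSO value, and the level with erlotinib was 31.9% of that with DMSO (log2 fold change -1.65, SE 0.14, adjusted p = 7.9e-10, limma). The nearest tested genes on both sides fell too. TOP2A, a topoisomerase of dividing cells 25.6 kb away, had a log2 fold change of -2.52, and TNS4, a focal adhesion gene 18.1 kb away, had -2.24. The genes most like IGFBP4 over the 6 libraries were NOCT at a distance of 0.315, AOX1 at 0.322 and MCC at 0.323, all farther than the genes most like INSR. NOCT encodes a phosphatase known from the circadian clock and AOX1 an aldehyde oxidase.

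IGFBP2 lies on the plus strand at chr2:216632828-216664436. This binding protein had a signal of 526, 423 and 533 with DMSO and 365, 420 and 373 with erlotinib. The DMSO 2 and erlotinib 5 libraries were nearly equal, though the groups did not overlap. The log2 fold change was -0.35 (SE 0.12, adjusted p = 0.0122, limma). Without DMSO 3 it was -0.29 (adjusted p = 0.061, limma), and without erlotinib 4 it was -0.31 (adjusted p = 0.0569, limma).

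IGFBP6, a binding protein that prefers IGF2, lies on the plus strand at chr12:53097667-53102340. Its signal was 555, 385 and 496 with DMSO and 347, 420 and 338 with erlotinib. The groups overlapped, since DMSO 2 was under erlotinib 5. The log2 fold change was -0.37 (SE 0.13, adjusted p = 0.0195, limma). It was -0.25, -0.33, -0.33 and -0.31 without DMSO 1, DMSO 3, erlotinib 4 and erlotinib 6, with adjusted p-values of 0.116, 0.0721, 0.076 and 0.0843 in limma, none of them past the threshold. With each library scaled to its total, IGFBP2 stood at -0.17 (adjusted p = 0.198) and IGFBP6 at -0.19 (adjusted p = 0.212) in limma, and neither passed the test.

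IGFBP3 was by far the most abundant of the binding proteins per kb, at 2229 ± 76.8 with DMSO and 3207 ± 74.7 with erlotinib (SD, n = 3). IGFBP4 stood at 332 ± 48.3 and 106 ± 19.2, IGFBP6 at 356 ± 63.8 and 274 ± 33.3, and IGFBP2 at 104 ± 13.0 and 81.3 ± 6.29. Of the summed level per kb of IGFBP1, IGFBP2, IGFBP3, IGFBP4 and IGFBP6, IGFBP3 held 68.6% ± 2.75 with DMSO and 85.0% ± 0.79 with erlotinib, and IGFBP4 held 10.2% ± 1.08 and 2.82% ± 0.59. The makeup of the binding proteins thus moved towards IGFBP3 in every erlotinib library. The order of the 10 genes by level per kb began with IGFBP3, IRS1 and IGFBP6 in both groups. IGFBP6 and IGFBP2 had similar mean signals of 479 and 494 with DMSO, but merged exons of 1.346 and 4.742 kb. With DMSO, the libraries of IGFBP6 and IGFBP4 overlapped in level per kb, as did those of IGFBP2 and IGF1R. With erlotinib, the levels per kb of IRS2, IGF2R and IGF1R, at 176 ± 21.9, 172 ± 21.7 and 172 ± 17.7, could not be ordered, and IGFBP6 overlapped with GRB10, IGFBP4 with INSR, and INSR with IGFBP2.

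The nearest tested genes of the remaining members moved in both directions. SPRYD3 (-0.45) and CSAD (1.14), 18.3 kb and 55.3 kb from IGFBP6, fell and rose, and DDC (-0.68), 24.7 kb from GRB10, fell. Of neighbours 129 kb or more away, MRPL18 (-1.18), COL4A1 (-0.79), ARPC2 (-0.77), SYNM (-0.45) and ABHD13 (-0.35) fell, and NYAP2 (1.54) and LOC730338 (1.24) rose. NYAP2 was low, with a mean signal of 11.8 with DMSO and 36.3 with erlotinib. ARRDC4 (0.28, adjusted p = 0.0574), RPL37A (-0.32, adjusted p = 0.0877) and COBL (-0.01, adjusted p = 0.926) did not pass the test in limma.

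The ligands were near absent from these cells. IGF1 had 4, 4 and 0 reads with DMSO and 11, 10 and 16 with erlotinib. IGF2 had 1 read in all 6 libraries together, INS, the gene of insulin, had 0, and the orphan receptor gene INSRR had 3. None reached the mean signal of 10 needed for the test. Proteins that the serum of the medium brings are not seen by RNA-seq.

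Of 10 other binding proteins and regulators of IGF cleavage, 3 were tested and all 3 fell, where 35.4% of all genes did. STC1 and STC2 are known as inhibitors of the pappalysin proteases that cut IGFBP4. STC1 had a mean signal of 610 ± 57.4 with DMSO and 15.2 ± 4.30 with erlotinib (log2 fold change -5.27, adjusted p = 1.6e-14, limma), and STC2 had 10453 ± 101 and 5739 ± 448 (-0.87). IGFBP1 was the third. The pappalysins themselves, PAPPA and PAPPA2, had at most 6 and 11 reads in any library, and IGFBP5, IGFBP7, IGFBPL1, IGFALS and the protease HTRA1 were also under the limit, at no more than 22 reads in any library. Of the 3 IGF2 mRNA-binding proteins, which bind and stabilise mRNAs, IGF2BP2 (-0.52) and IGF2BP1 (-0.43) fell and IGF2BP3 rose (0.24).

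Among the 24 adaptors and regulators that act next to the receptors, 10 rose, 10 fell and 3 did not pass the test, beside 35.3% higher and 35.4% lower of all genes, with a median log2 fold change of 0.14, and IRS4 was not tested at no more than 18 reads in any library. The largest rises were those of GAB2 (1.76), a docking adaptor, GRB7 (1.56), an adaptor of the same family as GRB10, and DOK4 (1.49), a further docking protein. GRB7 had a mean signal of 569 ± 110 with DMSO and 1655 ± 116 with erlotinib (adjusted p = 1.4e-10, limma), while GRB14, the remaining member of that family, did not pass the test (0.14, adjusted p = 0.381, limma). The largest falls were those of NEDD4 (-1.13), a ubiquitin ligase that binds GRB10, IDE (-0.71), the insulin-degrading enzyme, and CRKL (-0.70), an adaptor. With each library scaled to its total, 6 of these genes were lower in place of 10, where 27.8% of all genes tested were lower in place of 35.4%.

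Of 17 tested genes of the PI3K and AKT arm, 5 rose, 5 fell and 7 did not pass the test, beside the same shares of all genes, with a median of -0.07. PIK3IP1, an inhibitor of PI3K, had the largest rise, from 46.3 ± 17.9 with DMSO to 759 ± 34.2 with erlotinib (log2 fold change 4.09, adjusted p = 8.9e-13, limma). PIK3R3, a regulatory subunit of PI3K, rose by 1.83 and INPPL1, a lipid phosphatase, by 0.94. PHLPP2, a phosphatase of AKT, had -1.33, TRIB3, a pseudokinase that binds AKT, had -1.31, and PIK3CB, a catalytic subunit, had -0.54.

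Of the 16 genes of the mTOR complexes and of translation control, 5 rose, 9 fell and 2 did not pass the test, beside 35.3% higher and 35.4% lower of all genes tested, with a median of -0.45. The largest rises were those of DEPTOR, TSC2 and EIF4EBP2. DEPTOR, an inhibitor within the mTOR complexes, went from 37.4 ± 5.77 to 322 ± 34.4 (log2 fold change 3.08, adjusted p = 1.4e-11, limma), TSC2, the GTPase activator that turns off RHEB, had 0.79, and EIF4EBP2, a repressor of translation, had 0.60. The largest falls were those of the cap-binding protein EIF4E (-1.35), EIF4EBP1 (-0.92), which like EIF4EBP2 is a repressor, and the kinase RPS6KB1 (-0.85).

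Of the 4 FOXO factors, 3 rose and 0 fell, where 35.3% of all genes tested were higher. FOXO4 had a mean signal of 234 ± 36.0 with DMSO and 1610 ± 25.0 with erlotinib (log2 fold change 2.79, adjusted p = 7.6e-15, limma), FOXO6 had 36.5 ± 15.3 and 168 ± 28.9 (2.24), and FOXO1 had 165 ± 9.47 and 328 ± 51.7 (0.98). FOXO3 had 0.10 and did not pass the test (adjusted p = 0.185, limma). With each library scaled to its total all 4 were higher, where 43.3% of all genes tested were. Over the 66 tested genes of these lists, without the 10 genes above, 24 rose, 29 fell and 13 did not pass the test, with a median of -0.06, where 70.7% of all genes tested passed.

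**Figure D4:**
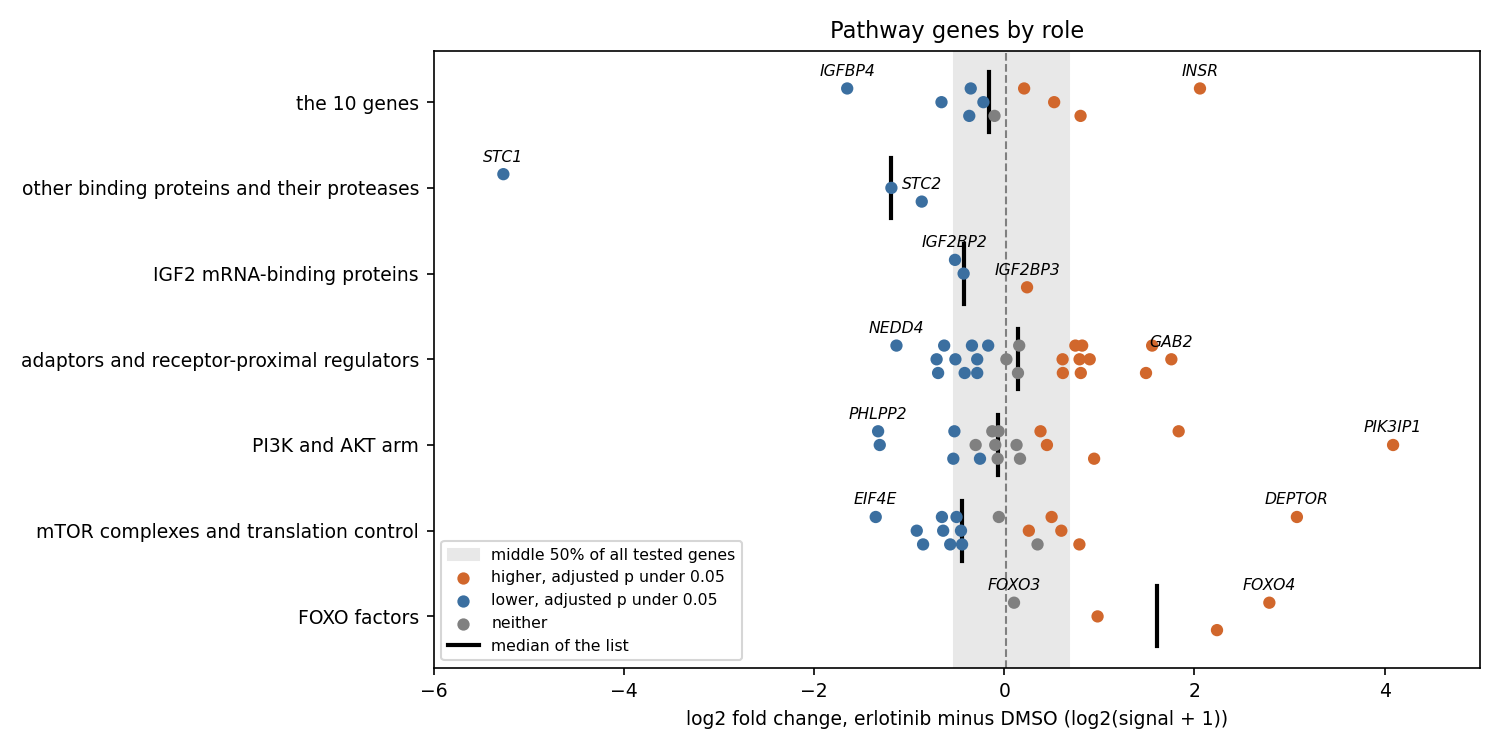
Log2 fold change, erlotinib against DMSO, of each tested gene of the insulin and IGF pathway, by role. Orange and blue points passed an adjusted p of 0.05, grey points did not, black bars are list medians, and the dashed line and grey band mark the median and the middle 50% of all genes tested. PIK3IP1 (4.09) and DEPTOR (3.08) lie highest, STC1 (-5.27) lowest, and the adaptors spread to both sides.

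The outcome for the genes with the larger changes did not hinge on the method. INSR (1.99 to 2.24), IGF1R (0.72 to 0.98), IGFBP3 (0.50 to 0.70), IRS1 (-0.71 to -0.48) and IGFBP4 (-1.79 to -1.47) kept their direction and passed the test under all 15 alternatives, which used edgeR, DESeq2 or limma-voom on the recovered reads, other scalings, pseudocounts and filters, or left out 1 library.

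**Figure D5:**
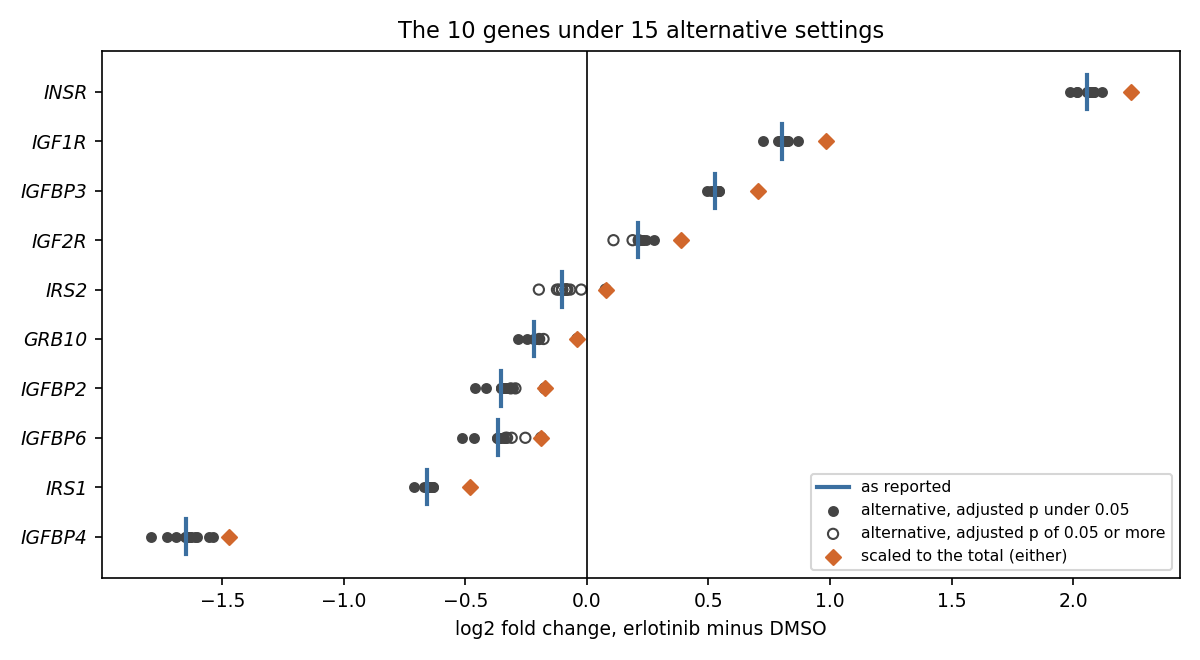
Log2 fold change of the 10 genes, erlotinib against DMSO, as reported (blue bars) and under 15 alternatives. Filled points passed an adjusted p of 0.05, open points did not, and orange diamonds are the values with libraries scaled to their totals, whatever their p. INSR, IGF1R, IGFBP3, IRS1 and IGFBP4 have no open point, and the diamond of IRS2 lies above 0, at 0.077.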

How the data were processed

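RNA of HCC827 cells was sequenced in 6 libraries after poly(A) selection. According to the authors' methods and the submitters' processing notes, paired-end reads were mapped to GRCh38 with Bowtie2 2.3.4, which does not split reads across introns, uniquely mapped reads were counted per gene with featureCounts 1.6.3, and DESeq2 1.18.1 was used for their comparison. The strand counted is not given in the sources used here. The table deposited by the authors is described as raw counts but holds signal. Dividing a library's values by the smallest above 0 gave whole reads for 100% of them (tolerance 0.01 reads), as for reads scaled by a size factor (0.882 to 1.08). Total reads per library set the depth, and no per-sample column was left out.

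Genes of mean signal 10 or more were tested with limma 3.58.1 (R 4.3.3) on log2(signal + 1) with a variance trend, two-sided, with Benjamini-Hochberg adjustment over all genes and a threshold of 0.05. Fold changes are on that scale and understate those of low genes. Tested on simulated data for this comparison (13659 genes), it recovered 176 of 198 genes changed 2-fold up or down, and 6.38% of its calls were false. In the simulation the size factors were known and most genes did not change, whereas 70.7% of genes tested passed in the data. It therefore does not show the share of false calls in the data or the effect of the scaling. Alternatives were edgeR 4.0.16, DESeq2 1.42.0 and limma-voom on the recovered reads, scaling to the total, TMM factors, pseudocounts of 0.1 and 10, no filter, at least 10 reads in every library, and each library left out.

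The 10 genes and the pathway and marker lists were chosen with earlier results of these data known. Named were the 10 genes, up to 3 genes per list with the largest rise and fall past the threshold, untested list genes, the nearest tested genes on both sides, and the 3 genes most like INSR and IGFBP4. GRB14 was named for its family after its values were seen, as was FOXO3. Positions and promoters came from RefSeq (GRCh38.p14), and exon lengths from GENCODE release 44. By minimap2 2.31-r1302, 0 of the 10 genes had a second place in the genome (90% aligned, 97% identity). Protein sequences were not analysed here, and some single genes are not reported here.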

Additional observations from a re-analysis of the deposited data

How the results depend on the processing

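Of 150 values of the 10 genes under 15 alternatives, 135 kept their direction and their side of the threshold, 14 no longer passed and 1 reversed, and for the 27 genes of the pathway lists named for the largest changes none of 405 values changed. With each library scaled to its total, which moved the median of all genes from 0.02 to 0.19 and gave 43.3% of genes higher and 27.8% lower, IRS2 reversed to 0.077 (adjusted p = 0.459, limma), 2 of the 10 genes were lower in place of 5, 6 adaptors were lower, 4 FOXO factors were higher in place of 3, and GRB10 stood at -0.040, IGFBP2 at -0.17 and IGFBP6 at -0.19. With no filter, 1 ligand passed, IGF1 (2.07, adjusted p = 0.0148, limma). Leaving out 1 library gave 2 to 5 of the 10 genes lower (3 without DMSO 3 and 2 without erlotinib 4). It gave log2 fold changes of 0.11 to 0.28 for IGF2R, -0.46 to -0.29 for IGFBP2, -0.52 to -0.25 for IGFBP6 and -0.28 to -0.18 for GRB10. The cause was not tested. The number of all genes higher lay between 4354 and 6156 and lower between 3955 and 5096, and 0 genes were called in the opposite direction. No paired analysis was possible because the columns of the table number the erlotinib libraries 4 to 6, while the labels number both groups 1 to 3.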
